A study of Mus musculus with 15 samples.

Results

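A set of 7 genes of the mouse hippocampus was examined, namely Sertad1, Wnk4, Cd47, Apba3, Ssbp4, Rab40c and Klhl9. Their fitted response to docosahexaenoic acid (DHA) had opposite signs in wild-type (WT) and Tg2576 mice. They had been chosen from these same counts for a low p value of the interaction of genotype and DHA, which is the DHA difference in Tg2576 mice minus the DHA difference in WT mice on the log2 scale. They are 7 of the 55401 genes in the files, and all 7 are among the 19536 genes with enough reads to be tested. Because this contrast chose them, their DHA and genotype differences are given as a description. Tests are kept for other genes and for measures that are nearly independent of this contrast.

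The hippocampus of 15 aged female mice was sequenced. The methods of the study give the age of the animals as 18 to 20 months, and its discussion gives a higher age where it treats spine density. WT mice (Tg2576 -/-, the negative littermates) received vehicle (4 mice) or DHA (4 mice), and Tg2576 mice (Tg2576 +/+) received vehicle (4 mice) or DHA (3 mice). The vehicle was sesame oil, and DHA was given at 450 mg/kg by gavage each day over 5 weeks. Tg2576 mice carry human APP with the Swedish mutation behind the prion promoter, which is active in many cell types and outside the brain as well.

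The products of the 7 genes work at different steps of cell signalling and have no single pathway in common. Sertad1 binds cyclin-dependent kinase 4 and the E2F-DP transcription factors, and Wnk4 is a kinase that acts through the kinases Stk39 and Oxsr1 on the cation-chloride cotransporters that set chloride in neurons and epithelia. Cd47 is a membrane protein that binds Sirpa on phagocytes and marks cells and synapses as not to be engulfed, and Apba3 (X11-gamma, or Mint3) is an adaptor that binds the APP tail. Ssbp4 is a partner of the LIM-domain binding protein Ldb1, whereas Rab40c and Klhl9 are substrate receptors of ubiquitin ligases built on the cullins Cul5 and Cul3.

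The promoters of Sertad1 and Wnk4, whose fitted DHA differences were the widest of the 7, and of Klhl9, whose interaction had the other sign, are shown as the 250 bases before the start site in RefSeq (GRCm38.p6), 5′ to 3′ on the strand of the gene. Capitals mark each GGGCGG (a GC box) on the strand shown or, as CCGCCC, on the other strand. They lie at chr7:27486703-27486952 (plus strand), chr11:101260317-101260566 (plus strand) and chr4:88722509-88722758 (minus strand), and the last bases of the Sertad1 stretch lie within the gene model of the count files.
Sertad1: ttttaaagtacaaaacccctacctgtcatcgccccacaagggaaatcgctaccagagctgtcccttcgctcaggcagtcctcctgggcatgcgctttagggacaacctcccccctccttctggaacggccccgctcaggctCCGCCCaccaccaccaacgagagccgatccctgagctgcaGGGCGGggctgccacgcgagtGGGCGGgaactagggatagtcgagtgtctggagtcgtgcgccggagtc
Wnk4: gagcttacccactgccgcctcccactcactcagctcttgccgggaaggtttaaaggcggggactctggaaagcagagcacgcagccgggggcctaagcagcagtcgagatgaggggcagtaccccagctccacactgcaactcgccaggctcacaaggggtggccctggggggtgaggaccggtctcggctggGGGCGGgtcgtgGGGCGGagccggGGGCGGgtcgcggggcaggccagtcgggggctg
Klhl9: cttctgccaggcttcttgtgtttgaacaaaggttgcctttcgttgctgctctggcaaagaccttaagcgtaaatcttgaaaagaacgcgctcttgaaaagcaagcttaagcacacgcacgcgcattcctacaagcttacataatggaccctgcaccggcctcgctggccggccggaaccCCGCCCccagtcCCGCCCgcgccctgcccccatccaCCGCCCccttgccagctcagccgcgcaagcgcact

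Over the 300 bases that RefSeq gives around each start site, all 7 promoters were found, and GGGCGG was present in 6 of them (all but Apba3), against 35.9% of 27025 promoters. It occurred 3 times each in Sertad1, Wnk4, Cd47 and Klhl9, 4 times in Rab40c and once in Ssbp4. The 6 windows with it had 60.7% (Klhl9) to 75.3% (Rab40c) GC and that of Apba3 had 50.3%, against a median of 52.7% over all promoters. The share of promoters with GGGCGG was not matched for GC content. CCAAT was found in Ssbp4 and Rab40c (37.9% of promoters), TGACG in Cd47 and Rab40c (21.02%) and CCGGAAG in Cd47 and Apba3 (9.12%), with both strands searched and overlapping matches each counted. None of the 7 windows held TATAAA (14.2% of promoters). CACGTG (7.24%) and the sequence AGGTCA (16.0%) were absent as well. These matches describe the letters of the windows only, and the GC-rich motif was present whichever sign the interaction had.

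Total counts per mouse ranged from 17372864 to 46596489, and values are read counts scaled to library size (CPM) after TMM scaling of the library sizes, whose factors ranged from 0.961 to 1.03. The App counts, which hold mouse and transgene reads together, were 2342 ± 221 CPM (SD, n = 4) and 2542 ± 251 CPM (n = 3) in Tg2576 mice with vehicle and with DHA, and 1703 ± 86.5 CPM (n = 4) and 1641 ± 64.3 CPM (n = 4) in the WT mice, so that no library went against its genotype label. The 6 markers of hippocampal neurons summed to 740.1 to 1149 CPM, and none was at 0 reads. The 6 choroid plexus markers, in contrast, summed to between 211 and 6858 CPM and so differed widely between mice. In such bulk samples, fewer cells of a type and less RNA per cell cannot be told apart.

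Sertad1 (ENSMUSG00000008384.8, chr7:27486910-27490316, plus strand, 3 exon blocks) was counted with 124 to 315 reads per mouse. In WT mice it stood at 6.78, 5.996, 7.16 and 6.80 CPM under vehicle and at 9.16, 9.16, 10.2 and 10.8 CPM under DHA. In Tg2576 mice it stood at 12.4, 9.95, 9.80 and 10.5 CPM under vehicle and at 9.21, 6.80 and 7.09 CPM under DHA. Every WT DHA mouse lay above every WT vehicle mouse, and every Tg2576 DHA mouse lay below every Tg2576 vehicle mouse. The fitted DHA difference was 0.56 ± 0.14 (log2 ± SE, 1.47-fold) in WT and -0.47 ± 0.15 (0.723-fold) in Tg2576 mice, and the interaction of -1.02 ± 0.20 had the lowest p of all genes tested. Under vehicle alone, the Tg2576 mice were 1.59-fold above the WT mice without overlap, which held for none of the other 6 genes.

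Wnk4 (ENSMUSG00000035112.17, chr11:101260567-101277409, plus strand, 19 exon blocks) was the other low-count gene, with 118 to 391 reads. WT mice had 8.42, 6.72, 7.77 and 8.39 CPM under vehicle and 14.4, 8.99, 10.9 and 13.5 CPM under DHA. Tg2576 mice had 9.82, 6.92, 8.51 and 12.03 CPM under vehicle and 7.41, 6.15 and 4.57 CPM under DHA. The WT groups were apart, while the highest Tg2576 DHA mouse exceeded the lowest Tg2576 vehicle mouse. The DHA difference was 0.61 ± 0.19 (1.52-fold) in WT and -0.62 ± 0.21 (0.650-fold) in Tg2576 mice, so this kinase had the widest interaction of the 7, at -1.23 ± 0.29. Under DHA its level in Tg2576 mice was 0.507 times that in WT mice, with no overlap.

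Klhl9 (ENSMUSG00000070923.4, chr4:88718292-88722465, minus strand, a single exon block), the Cul3 adaptor that acts with Klhl13 on Aurora B in dividing cells, was the mirror image. The WT values were 62.0, 67.7, 61.8 and 67.6 CPM with vehicle and 50.1, 52.3, 48.8 and 49.9 CPM with DHA. In Tg2576 mice the values were 50.7, 66.0, 60.6 and 58.3 CPM under vehicle and 58.8, 76.2 and 64.0 CPM under DHA. The 4 WT DHA mice formed a narrow group below all other mice except 1 Tg2576 vehicle mouse, and the Tg2576 groups overlapped. The DHA difference was -0.37 ± 0.09 in WT and 0.17 ± 0.10 in Tg2576 mice, with an interaction of 0.54 ± 0.14.

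Rab40c (ENSMUSG00000025730.14, chr17:25882114-25919727, minus strand, 9 exon blocks), a Rab GTPase with a SOCS box that recruits Cul5, went with Sertad1 and Wnk4. Its CPM were 48.5, 52.5, 53.3 and 54.3 in WT vehicle and 63.0, 56.9, 57.9 and 69.2 in WT DHA mice. They were 68.8, 52.0, 62.3 and 60.6 in Tg2576 vehicle and 52.5, 46.9 and 51.9 in Tg2576 DHA mice. The WT groups were apart, and in Tg2576 mice a single vehicle mouse (52.0 CPM) reached into the DHA range. The DHA difference was 0.24 ± 0.09 in WT and -0.27 ± 0.10 in Tg2576 mice, and the interaction was -0.51 ± 0.14.

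Cd47 (ENSMUSG00000055447.19, chr16:49800533-49915010, plus strand, 19 exon blocks), the ligand of Sirpa, had 128, 132, 123 and 137 CPM in WT vehicle and 159, 139, 152 and 171 CPM in WT DHA mice. Tg2576 mice had 122, 155, 148 and 169 CPM under vehicle and 131, 107 and 118 CPM under DHA. The lowest Tg2576 vehicle mouse again lay among the DHA mice, and the other 3 lay above them. The DHA difference was 0.26 ± 0.10 (1.19-fold) in WT and -0.33 ± 0.11 (0.797-fold) in Tg2576 mice, and the interaction was -0.58 ± 0.15.

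Apba3 (ENSMUSG00000004931.11, chr10:81266960-81273246, plus strand, 9 exon blocks), the APP-binding adaptor, was at 24.4, 24.7, 27.3 and 24.1 CPM in WT vehicle and at 32.1, 30.7, 33.7 and 38.3 CPM in WT DHA mice. It was at 27.6, 26.6, 27.3 and 32.8 CPM in Tg2576 vehicle and at 26.4, 21.7 and 25.7 CPM in Tg2576 DHA mice. The groups were apart in both genotypes, although in Tg2576 mice the gap was 26.4 to 26.6 CPM. The DHA difference was 0.42 ± 0.10 in WT and -0.22 ± 0.11 in Tg2576 mice, and the interaction was -0.64 ± 0.15.

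Ssbp4 (ENSMUSG00000070003.7, chr8:70597490-70608872, minus strand, 14 exon blocks), the Ldb1 partner, had 154, 175, 178 and 176 CPM in WT vehicle and 213, 211, 184 and 232 CPM in WT DHA mice. It had 210.1, 162, 194 and 199 CPM in Tg2576 vehicle and 169, 167 and 172 CPM in Tg2576 DHA mice. The 3 Tg2576 DHA mice were the most alike of any group of this gene (SD 2.599 CPM), and only 1 vehicle mouse lay below them. The DHA difference was 0.30 ± 0.09 in WT and -0.18 ± 0.10 in Tg2576 mice, with an interaction of -0.48 ± 0.13, the narrowest of the 7.

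**Figure D1:**
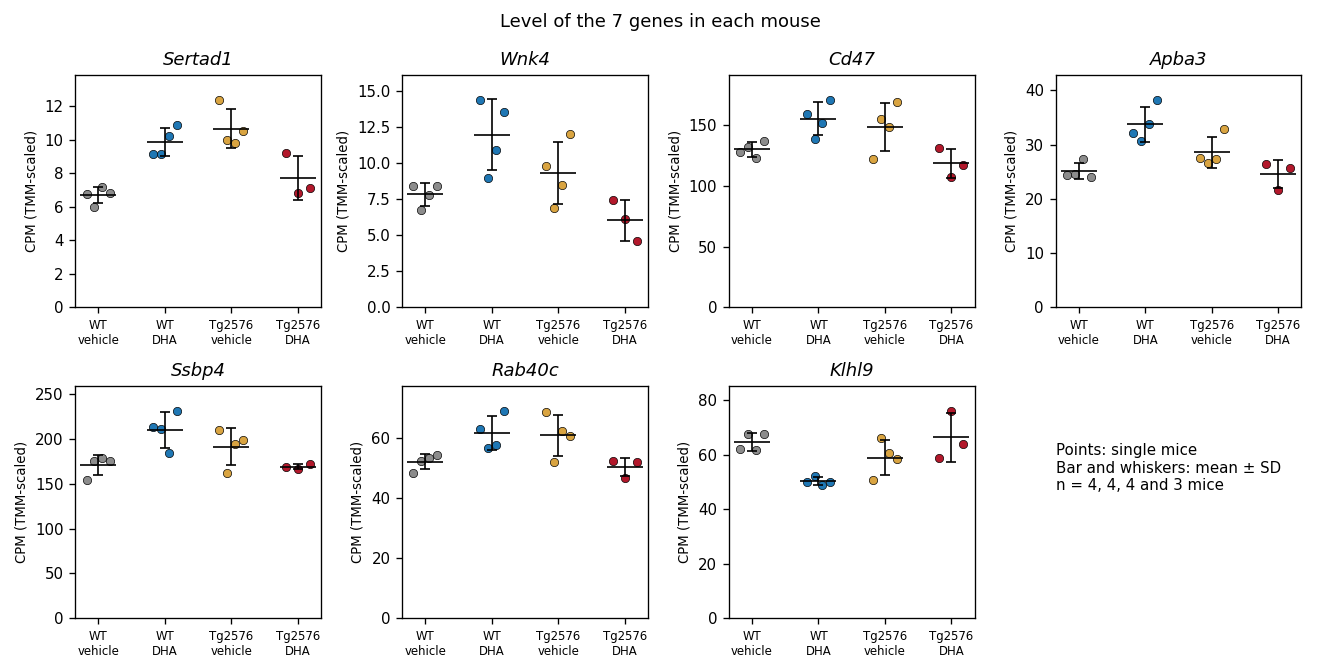
Level of each gene (y axis, TMM-scaled CPM from 0) by group (x axis), vehicle before DHA and WT before Tg2576, with a point for each mouse and bars for the mean ± SD (n = 4, 4, 4 and 3). In 6 panels the WT DHA mice stand above the WT vehicle mice and the Tg2576 DHA mean stands below the Tg2576 vehicle mean, and the Klhl9 panel shows the reverse.

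The 7 interaction p values ran from 7.9e-05 (Sertad1, rank 1) to 0.00213 (Ssbp4, rank 30), and the next gene in order, which was not chosen, had 0.00215. Of all genes tested 0.829% had an interaction p under 0.01, the threshold of the study, and the 7 genes lie inside that share by choice. They make up 3 of the first 10 and 7 of the first 30 genes by that p. None passed Benjamini-Hochberg adjustment in the edgeR fit (smallest adjusted p over all genes 0.845, with 1001 genes at an unadjusted p under 0.05), and limma-voom also gave none. DESeq2 gave 1 gene under an adjusted p of 0.05, Sertad1 (0.0103).

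Opposite signs of the DHA difference in the 2 genotypes, as seen in all 7, are common among genes with a low interaction p. They were found in 159 of the 162 genes with p under 0.01 (72 higher with DHA in WT and lower in Tg2576, 87 the reverse) and in 55.8% of all genes tested. The Sertad1, Wnk4, Cd47, Apba3, Ssbp4 and Rab40c pattern is that of the 72, and the Klhl9 pattern that of the 87.

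In WT mice, vehicle and DHA values were apart for 7 of the 7 genes, against 5.02% of all genes, and in Tg2576 mice for 2 (Sertad1 and Apba3), against 3.21%. Between genotypes, the groups were apart for 1 of the 7 under vehicle (Sertad1), against 5.16%, and for 6 under DHA (all but Sertad1), against 8.56%. All these differences are parts of the interaction, so the counts describe the chosen genes and give no support of their own. In Tg2576 mice, 1 or more mice crossed for Wnk4, Cd47, Ssbp4, Rab40c and Klhl9.

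The order of the 4 group means was the same for 5 genes, Wnk4, Cd47, Apba3, Ssbp4 and Rab40c, with WT DHA highest, followed by Tg2576 vehicle, WT vehicle and Tg2576 DHA. Neighbours in this order overlapped in part. The Apba3 means of the lower pair were 25.1 ± 1.47 and 24.6 ± 2.54 CPM, and the Rab40c means of the upper pair were 61.7 ± 5.67 and 60.9 ± 6.92 CPM. Klhl9 had exactly the reverse order, from 66.3 ± 8.95 CPM in Tg2576 DHA to 50.3 ± 1.46 CPM in WT DHA mice. Sertad1 differed from both, with Tg2576 vehicle highest (10.7 ± 1.18 CPM) and WT vehicle lowest (6.69 ± 0.49 CPM). The group medians of the summed choroid plexus markers, from 4272 CPM in Tg2576 DHA over 2209 and 1199 CPM to 468 CPM in WT DHA mice, ran in the order of Klhl9 and in the reverse of the 5 genes. The WT DHA range (211 to 6858 CPM) spanned those of the other groups. The Tg2576 DHA range (4138 to 6351 CPM) met the vehicle ranges only at their upper ends, at 4350 CPM in WT and 4294 CPM in Tg2576 mice. The part of these markers in the pattern of the 7 genes was not tested.

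**Figure D2:**
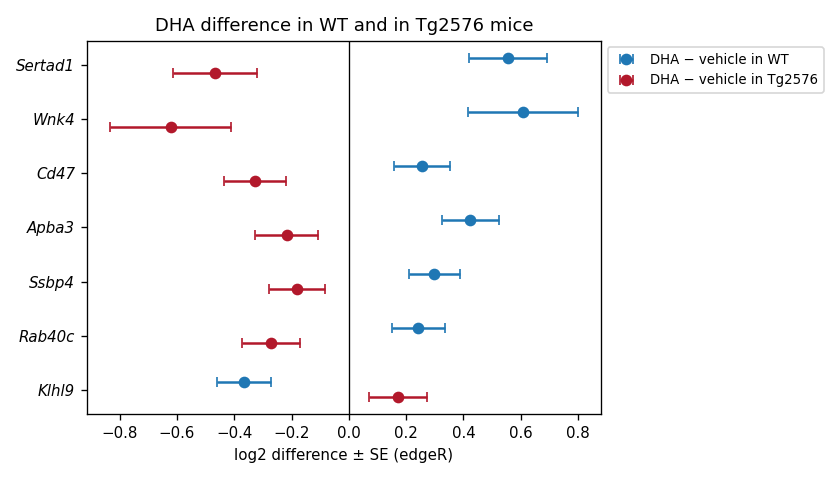
DHA minus vehicle on the log2 scale (x axis, edgeR estimate ± SE) for each gene (y axis) in WT mice (blue) and Tg2576 mice (red). The estimates lie on opposite sides of 0 for all 7 genes, from 0.61 and -0.62 for Wnk4 to 0.30 and -0.18 for Ssbp4.

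The mean effects of genotype and of DHA, each averaged over the levels of the other factor, are nearly independent of the interaction by design (implied correlation of the estimates 0.0769) and could be tested, although they share its residual variance. None of the 7 genes had a p under 0.01 in the edgeR quasi-likelihood test of the mean genotype effect, against 3.85% of all genes, and the same was true of DESeq2 and limma-voom. With each tool, 1 of the 7 had p under 0.05, against 11.6% of all genes in edgeR. In edgeR this was Wnk4, which was lower in Tg2576 mice (-0.37 ± 0.14 on the log2 scale, adjusted p = 0.325). Klhl9 was next, at 0.13 ± 0.07 (edgeR adjusted p = 0.489).

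For the mean DHA effect, none of the 7 genes had p under 0.05 with edgeR, DESeq2 or limma-voom, and none had p under 0.01, against 0.87% of all genes in edgeR. The estimates ran from -0.10 ± 0.07 (Klhl9) to 0.10 ± 0.07 (Apba3), and Wnk4 was at -0.01 ± 0.14. These averages are smaller than the differences within each genotype because the latter have opposite signs. The 7 genes stand as a set with opposite DHA responses, so a mean DHA effect near 0 follows in part from the choice.

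Family members and binding partners of the 7 proteins were then followed as a list of 50 genes, of which 49 could be tested (Aurkb could not). In the interaction, 1 of the 49 had p under 0.01 in edgeR, DESeq2 and limma-voom alike, against 0.829% of all genes, and the median interaction of the list was 0.0005 against 0.0043 for all genes. With edgeR, none had p under 0.01 for DHA in WT (background 1.38%) or for DHA in Tg2576 mice (0.353%), and 5 and 1 had p under 0.05, against 5.92% and 3.16% of all genes. DESeq2 gave 6 and 1 at p under 0.05, limma-voom gave 4 and 1, and neither gave any under 0.01. The mean DHA effect had none under 0.01 and 3 under 0.05 in edgeR and DESeq2 (3.78% of all genes in edgeR), while limma-voom placed 1 under 0.01, the thrombospondin Thbs4 (-0.42, adjusted p = 0.945), which is named after its value was seen.

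Paralogues of 6 of the 7 genes, chosen by name or function (none was listed for Cd47), gave estimates nearer to 0. The 7 genes were chosen for a low interaction p, so such a gap follows largely from that choice. It does not show that the paralogues responded differently, and the difference from their partner in each pair was not tested. Sertad3, which lies next to Sertad1 on the chromosome, had an interaction of -0.06 ± 0.33 (edgeR adjusted p = 0.979), and Wnk2, the most abundant of the 4 Wnk genes per length, had -0.01 ± 0.19 (adjusted p = 0.996). Apba2 had 0.04 ± 0.10 (adjusted p = 0.955), Ssbp3 -0.13 ± 0.13 (0.859), Rab40b -0.06 ± 0.16 (0.959) and Klhl13 0.28 ± 0.18 (0.845). None of these 6 had an unadjusted p under 0.05 in edgeR, and Sertad3, with few reads, had the widest error.

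Per length, the chosen gene was not always the minor form. Mean levels over all mice were 6.54 CPM per kb for Sertad1, against 4.60 for Sertad2, 2.24 for Sertad3 and 4.87 for Sertad4. Wnk4 had 2.16 CPM per kb, close to Wnk3 (2.22) and under Wnk1 (9.94) and Wnk2 (19.2). Apba3 at 9.77 CPM per kb was under Apba1 (28.8) and Apba2 (63.8), whereas Ssbp4 at 58.9 exceeded Ssbp3 (22.9), Klhl9 at 14.3 exceeded Klhl13 (4.96) and Rab40c at 18.3 was level with Rab40b (18.7).

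In the Wnk4 list of 13 genes, 10 had a positive interaction, the sign opposite to that of Wnk4, and 1 passed the test. This was Slc12a2 (NKCC1), the chloride importer that is activated through Stk39 and Oxsr1 and is abundant in choroid plexus, with an interaction of 0.67 ± 0.21 (edgeR adjusted p = 0.845). It had 90.2, 73.1, 71.2 and 62.5 CPM in WT vehicle and 51.9, 62.4, 65.6 and 51.4 CPM in WT DHA mice. The Tg2576 mice had 57.7, 84.2, 56.8 and 54.3 CPM under vehicle and 72.5, 76.3 and 85.6 CPM under DHA, and the groups overlapped in both genotypes. Leaving out 1 mouse raised its p to 0.01 or above in 7 of 15 cases.

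Levels of the choroid plexus markers are given beside this result. Their summed level had a median of 2209 CPM with vehicle (314 to 4350 CPM) and 468 CPM with DHA (211 to 6858 CPM) in WT mice. In Tg2576 mice it was 1199 CPM with vehicle (313 to 4294 CPM) and 4272 CPM with DHA (4138 to 6351 CPM). All 6 markers (Ttr, Folr1, Kl, Clic6, Kcnj13 and Enpp2) had a positive interaction with a median of 1.53, but none passed the test (lowest p 0.181, edgeR), and the WT DHA range spans the ranges of the other groups. Their part in the Slc12a2 result was not tested.

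The other kinases and transporters of this list were measured without a call in the interaction. The Klhl2 adaptor, which with Cul3 targets Wnk kinases for degradation, was lower in Tg2576 mice in the mean genotype effect (-0.27 ± 0.07, edgeR adjusted p = 0.0971), and Cul3 was higher (0.22 ± 0.07, edgeR adjusted p = 0.249). Cul3 is also the ligase scaffold of Klhl9 and had the lowest interaction p of the Klhl9 list (0.24 ± 0.15, adjusted p = 0.845).

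Across all lists, 7 of the 49 genes passed in the mean genotype effect (14.3%), against 3.85% of all genes in edgeR, and the number was 7 in DESeq2 and 6 in limma-voom. The 7 include App, whose counts hold the transgene reads, so that its call follows from the genotype. The lists were also chosen with earlier results of these data known, so the share is only a description. App, whose human copy these mice carry, rose in Tg2576 mice (0.55 ± 0.06, edgeR adjusted p = 0.00171), and the phosphatase Ptpn6 (SHP-1), which acts behind Sirpa, rose as well (0.44 ± 0.15, edgeR adjusted p = 0.246). Besides Klhl2, the cyclin Ccnd1 (-0.33 ± 0.10), the Apba3 relative Apba2 (-0.20 ± 0.05) and the LIM homeobox factor Lhx2 (-0.23 ± 0.06) fell, with adjusted p values of 0.179, 0.0992 and 0.124. App was the only gene of the 7 to pass an adjusted p of 0.05 in edgeR. Of the 49 genes, DESeq2 placed 4 under that adjusted p in the mean genotype effect and limma-voom placed 1.

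Ptpn6 is expressed by microglia. The summed level of 6 microglial markers had a median of 273 CPM (263 to 297 CPM) with vehicle and 249 CPM (222 to 260 CPM) with DHA in WT mice, and of 314 CPM (243 to 351 CPM) and 355 CPM (290 to 388 CPM) in Tg2576 mice. Of the 6, 3 passed in the mean genotype effect, against 3.85% of all genes in edgeR, and 1 in the interaction, against 0.829%. All 6 had a positive interaction, with a median of 0.29, and none was at 0 reads. The part of microglia in the Ptpn6 result was not tested.

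For the remaining lists, the gene with the lowest interaction p was Tfdp1 for Sertad1 (-0.20 ± 0.11), Itgb3 for Cd47 (0.47 ± 0.33), Hif1an for Apba3 (0.22 ± 0.13), Ldb1 for Ssbp4 (-0.27 ± 0.15) and Elob for Rab40c (-0.33 ± 0.25). Tfdp1 (the DP subunit of E2F) and Ldb1 had the sign of the gene they partner, and so did Elob, the elongin B of Cul5 ligases. Itgb3 and Hif1an had the sign opposite to that of Cd47 and Apba3. None of these 5 passed the test (edgeR adjusted p from 0.845 to 0.847).

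**Figure D3:**
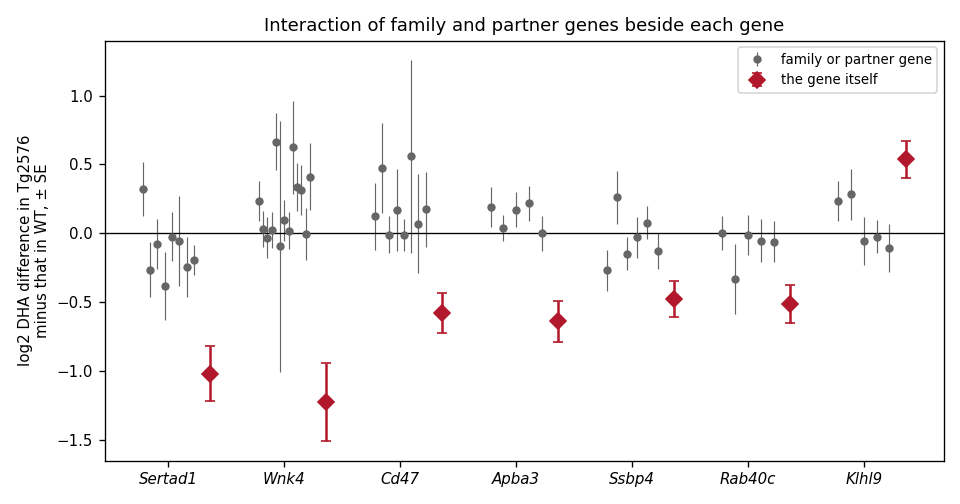
Interaction (y axis, log2 DHA difference in Tg2576 minus that in WT, ± SE) of the tested family and partner genes (grey) beside each chosen gene (red diamond), by list (x axis). The grey points scatter around 0 with a list median of 0.0005, while the red points, which were chosen by this measure, lie between -1.23 and -0.48 and, for Klhl9, at 0.54.

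Genes next to or overlapping the 7 on the chromosome were tested in the same contrast. Of 15 such genes, none had an interaction p under 0.01 or under 0.05 in edgeR, DESeq2 or limma-voom (lowest edgeR p 0.144), against 0.829% and 5.12% of all genes in edgeR, so that few or none would be found among 15 genes at those shares. They included Mrpl54, 26 bases from Apba3 on the other strand (-0.19 ± 0.22), Isyna1, 200 bases from Ssbp4 (-0.07 ± 0.13), and Coa3, 559 bases from Wnk4 (-0.16 ± 0.26). The others, which include Prx, Vps25, Bbx, Lrrc25 and Wfikkn1, ranged from -0.77 (Gm15518 beside Cd47) to 1.601 (AL805899.1 beside Klhl9), both below 1 CPM.

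Reads were counted without regard to strand, and reads shared by several genes were not counted. Klhl9 shares 661 exonic bases (15.8%) with the antisense gene Gm26566, which had 18 reads in all mice together, and Wnk4 shares 306 (7.38%) with Gm11615, which had 12. Apba3 shares 131 bases with Tjp3 and Mir3057, and Rab40c shares 103 with Gm16278. Sertad1, Cd47 and Ssbp4 share none.

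The genes most like Sertad1 over the 15 mice, by Pearson correlation of log2 CPM among 15478 genes of at least 1 CPM, were Lrrc8a (r = 0.874), a subunit of the volume-regulated anion channel, Gcat (0.861), an enzyme of threonine breakdown, and Zfyve21 (0.858). Their own interactions were -0.69, -0.96 and -0.43. Those most like Wnk4 were Golga7b (0.868), B4galt7 (0.853) and Git1 (0.850), with interactions of -0.42, -0.37 and -0.31. Wnk4 and Sertad1 correlated with each other at 0.608, and these values describe samples that share library, depth and base composition with both genes.

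After the group means were removed, the 6 genes with a negative interaction still varied together between mice of the same group. Of their 15 pairs 14 had a positive r over the 15 mice, with a median of 0.45 and a range from -0.07 (Cd47 and Ssbp4) to 0.86 (Ssbp4 and Rab40c). Klhl9 was negative with 5 of the 6, down to -0.80 with Sertad1, and at 0.10 with Cd47. The median r of each of the 7 with all genes tested lay between -0.03 and 0.02. No p is given, since the 15 mice share library effects across genes.

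Single mice stood out across several genes. Of the WT DHA mice, replicate 4 was the highest in 5 of the 6 genes, and of the Tg2576 DHA mice, replicate 1 was the highest in 5 and replicate 2 the lowest in 5. Tg2576 vehicle replicate 2 was the lowest of its group in 4, and it lay within the Tg2576 DHA range for Wnk4 and Rab40c and below it for Ssbp4.

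GC content differed among the 7 genes. The exons of Sertad1, Wnk4, Apba3, Ssbp4 and Rab40c have 58.9%, 59.0%, 60.4%, 64.3% and 54.8% GC, all above the median of 49.6% over genes tested, whereas Klhl9 and Cd47 have 42.2% each. Among all genes with an interaction p under 0.01, the median was 54.8% for the 75 negative and 45.5% for the 87 positive ones. The level of GC-rich genes relative to GC-poor genes in a library (log2) had a median of 0.10 in WT DHA, -0.00093 in Tg2576 vehicle, -0.09 in WT vehicle and -0.19 in Tg2576 DHA mice, and the ranges of neighbouring groups overlapped. This is the order of the group means of 4 of the 5 GC-rich genes and of the GC-poor Cd47, whereas Sertad1 had another order. Cd47 thus combined a low GC content with the sign of the GC-rich genes.

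Within groups, the residuals of the 7 genes correlated with that library measure at 0.66 for Sertad1, 0.59 for Wnk4, 0.34 for Cd47, 0.85 for Apba3, 0.50 for Ssbp4, 0.56 for Rab40c and -0.53 for Klhl9 (15 mice). With the GC trend of each library subtracted, those correlations were 0.31 for Sertad1, 0.40 for Wnk4, 0.64 for Cd47 and 0.45 for Apba3. They were -0.32 for Ssbp4, 0.24 for Rab40c and 0.02 for Klhl9, so the subtraction did not remove the link for every gene. After the same subtraction, the median r among the 6 genes was 0.28 with 12 of 15 pairs positive. The median r of Klhl9 with them went from -0.45 to -0.03. Sertad1 with Klhl9 went from -0.80 to -0.57, which was still the lowest value. Ssbp4 with Rab40c went from 0.86 to 0.70, and Cd47 with Apba3 from 0.58 to 0.80.

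**Figure D4:**
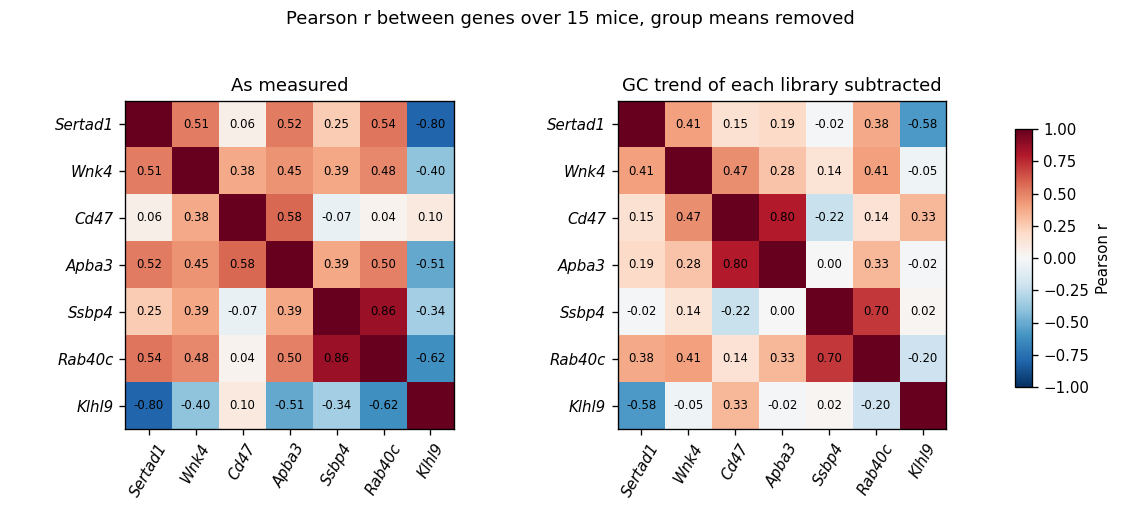
Pearson r between the 7 genes over 15 mice after removal of group means, from log2 CPM as measured (left) and with the GC trend of each library subtracted (right), with colour from -1 (blue) to 1 (red). Most of the blue Klhl9 row on the left is paler on the right, where Sertad1 with Klhl9 is still at -0.57 (from -0.80), and the Ssbp4 and Rab40c pair goes from 0.86 to 0.70.

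With a GC offset in the edgeR fit, all 7 interactions kept their sign. They were -0.91 ± 0.19 for Sertad1, -1.11 ± 0.27 for Wnk4, -0.51 ± 0.12 for Apba3, -0.46 ± 0.14 for Rab40c, -0.34 ± 0.13 for Ssbp4 and 0.40 ± 0.13 for Klhl9, each closer to 0 than without it. Cd47 moved the other way, to -0.73 ± 0.18. Ssbp4 went from rank 30 to rank 206 by p, and Sertad1 stayed at rank 1.

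Removal of any 1 mouse left the sign of each of the 7 interactions in place. Without Tg2576 DHA replicate 1, Sertad1 (-1.18) and Wnk4 (-1.40) lay furthest from 0, and the number of all genes with an interaction p under 0.01 went from 162 to 527. These values rest on the 2 remaining mice of that group.

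**Figure D5:**
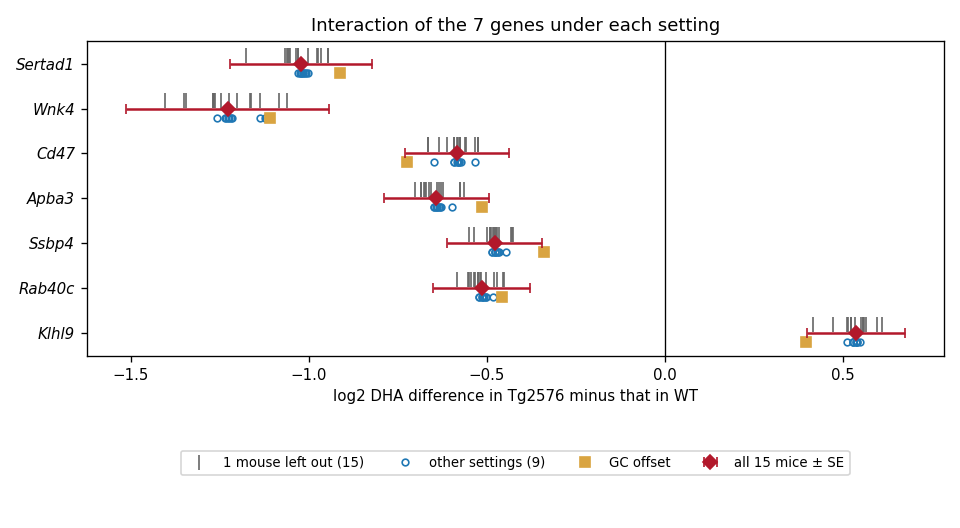
Interaction (x axis, log2) of each gene (y axis) from the fit with all 15 mice (red diamond ± SE), with each mouse left out (grey ticks, 15 fits), with a GC offset (yellow square) and with 9 other settings (open blue circles). No value crosses 0, and among the settings that keep all 15 mice the GC offset gives the value nearest to 0 for every gene but Cd47.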

How the data were processed

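Hippocampal RNA of 15 mice was sequenced, 1 library per mouse. The authors aligned the reads with STAR 2.6.1c to GRCm38 and made counts per gene with featureCounts 1.6.0 over GENCODE M25 exons, and the count files were deposited without normalization. Per the file headers, no option for strand or for shared reads was set. The library kit differs between the labels (SMARTER, 1.3 μg RNA) and the methods of the study (TruSeq Stranded, 1 μg). Sertad1 and Wnk4 had the fewest reads of the chosen genes and the widest errors of the interaction (0.20 and 0.29). The part of depth in these errors was not tested.

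Here, counts were fitted with edgeR 4.0.16 (R 4.3.3; filterByExpr with a count minimum of 10, TMM, robust quasi-likelihood F tests, two-sided, 1 coefficient per group, all 15 mice), with a threshold of p under 0.01 and Benjamini-Hochberg adjustment over 19536 genes. Symbols and GC content came from GENCODE M21 (GC for 19517 genes), and CPM were log2-transformed with a prior count of 2. Alternatives were DESeq2 1.42.0, limma-voom 3.58.1, other scaling and filters, GC and length offsets, a replicate block and each mouse left out. The edgeR step was tested on simulated counts. Replicates were separate mice.

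The 7 genes, the partner and marker lists and the rule for named genes were chosen with earlier results of these data known. Named were the 7 genes, App, partners with p under 0.01 in a contrast, the partner with the lowest interaction p per list, the closest paralogue, the nearest neighbours and the 3 genes most like Sertad1 and Wnk4.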

Additional observations from a re-analysis of the deposited data

Results flagged for a closer look

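Among the 21 groups of 4 mice of the 7 genes, 2 held a mouse far from the other 3, where chance alone gives about 1 in 20 groups. Apba3 stood at 32.8 CPM in Tg2576 vehicle replicate 4, and the gap to the nearest mouse was 0.836 of the range of the group. Ssbp4 stood at 154 CPM in WT vehicle replicate 1, with a gap of 0.864 of the range.

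Slc12a2 was the 1 partner gene of 49 with an unadjusted interaction p under 0.01 in edgeR, against 0.829% of all genes. Its interaction was 0.67 ± 0.21 on the log2 scale (edgeR adjusted p = 0.845). That p stayed under 0.01 in 8 of 15 fits with a mouse left out.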

How the results depend on the processing

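All 7 interactions kept their sign in each of the 25 alternative fits, and p stayed under 0.01 except for Ssbp4 with the GC offset (-0.34, rank 206). The 7 genes were chosen by this p, so its stability is no independent support. The mean genotype effect had 0 genes of the 7 under 0.01, but 1 (Wnk4) without the filter on low counts and with the replicate block, and 0 to 1 with a mouse left out. Its Rab40c value turned to 0.00012 without TMM and ranged from -0.0662 to 0.00026 with a mouse left out. The mean DHA effect, near 0 throughout, turned sign for Wnk4 with the replicate block (0.0312) and the length offset (0.00071). With a mouse left out it ranged from -0.0842 to 0.0742 (Wnk4), -0.0220 to 0.0928 (Sertad1), -0.0771 to 0.0049 (Cd47) and -0.0487 to 0.0180 (Rab40c). The cause was not tested.

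Of the partner genes, 0 to 2 passed in the interaction with a mouse left out. For the mean DHA effect 1 passed (Thbs4) in limma-voom and without the filter, and 0 to 2 with a mouse left out. For DHA in WT 1 passed (Slc12a7) with the replicate block, 2 (Thbs4 and Slc12a2) in a fit of the 2 groups compared, and 0 to 1 with a mouse left out. For DHA in Tg2576 mice 0 to 2 passed with a mouse left out. Of all genes, 247 passed in the interaction with DESeq2, 289 without the filter, and 87 (without WT vehicle replicate 1) to 527 (without Tg2576 DHA replicate 1) with a mouse left out, against 162. For the mean DHA effect 263 passed without the filter, against 170.

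Replicate numbers did not pair the mice (r of 21 same-number pairs from -0.24 to 0.21, 4 of them over 0.1, and 1 mouse correlating best with its own number). With the replicate block, the interaction was -1.02 for Sertad1 and -1.12 for Wnk4. The correlations with the GC trend subtracted were chosen after seeing the data.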
